A study of Saccharomyces cerevisiae with 8 samples.

Results

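The late and the early transcriptome of the *Saccharomyces cerevisiae* wine strain CECT10094 cultured in 10% (v/v) ethanol were compared, using 2 of the 8 deposited columns of the series. The measure was the log2 ratio of every ORF at 28 h minus its log2 ratio at 1 h, relative to the median difference of all ORFs, and it could be computed for 6067 of the 6152 ORFs of the array. The compared cultures were CECT10094 after 28 h and after 1 h in glucose-peptone-yeast extract (GPY) medium with 10% ethanol, inoculated from an overnight culture at an OD600 of 0.1 and shaken at 28 °C. Set beside them were cultures of the same strain after 10 h and 1 h in GPY without ethanol, and cultures of Temohaya-MI26 after 40 h and 1 h with 10% ethanol. CECT10094, called PE35M in the labels, is a flor yeast from Spanish wine, and Temohaya-MI26 comes from an agave fermentation in Mexico. Neither strain carried a described deletion or transgene, so no targeted gene could serve to check the labels. All samples were labelled with Cy5 and hybridised to spotted arrays against a Cy3-labelled pool of the RNA of all samples. Each condition was represented by 1 column, in which the values of 3 slides had already been combined by their median, so no difference has a replicate error or a test. The late samples are described as exponential in the labels and as taken after the exponential phase in the study's methods. Culture age, cell density and time spent in ethanol all differed between 28 h and 1 h, and their parts cannot be told apart.

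Ethanol disturbs membranes and protein folding and slows growth. Yeast meets such stress with a common program, in which genes for ribosomes and their assembly are repressed while genes under the factors Msn2 and Msn4, among them small heat shock proteins and enzymes of reserve carbohydrates, are induced. After adaptation much of this program is relaxed again. Cells that run short of glucose, in contrast, repress ribosomal genes and induce genes for the use of acetate, ethanol and fatty acids, many of them also under Msn2 and Msn4.

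After 28 h in ethanol, CECT10094 had higher relative transcript levels of most ribosomal proteins and of several genes of purine synthesis, the mitochondrial ATP synthase and hexose transport than after 1 h in ethanol. It had lower relative levels of 10 of 41 general stress genes and of a few genes of acetyl-CoA and thiamine synthesis. An ORF was counted as higher or lower when its relative difference passed 1.41 or -1.36 on the log2 scale, which is 2.67-fold higher or 2.57-fold lower. These limits come from the number of standard deviations around the mean that the study's methods use (the standard deviation was 0.71). They pick out the tails of the distribution and test nothing. By this limit 211 ORFs were higher (3.48% of 6067) and 142 were lower (2.34%). At 2-fold, 418 ORFs were higher (6.89%) and 324 lower (5.34%). Relative differences ran from -4.61 to 3.84. Before the median of -0.32 was taken off, 4338 ORFs had a negative difference and 1727 a positive one, so each direction given here is relative to the typical ORF. Without this centring 14 of 51 list medians, which lay between 0.07 and 0.32, would be negative. On the raw scale with a fixed limit of 1, 245 ORFs were higher and 735 were lower, and the higher ones made up 25.0% of those past the limit, against 59.8% in the relative differences.

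Levels are given below as centred log2 ratios, which are the deposited ratios minus the median of their column. A value of 0 is thus the typical ORF of that sample relative to the pool, and values of different genes say nothing of which transcript is more abundant. Differences between centred values depart from the relative differences by at most 0.0455. The 2 ethanol columns correlated weakly across genes (r = 0.14, 6067 ORFs). The lowest correlation between any 2 columns of the series was -0.36, between Temohaya-MI26 at 1 h in ethanol and CECT10094 at 1 h without ethanol, and the directions given here follow the dyes stated in the methods. Spots of near-identical genes, such as duplicated ribosomal protein genes, and of overlapping ORFs can cross-hybridise, and their values cannot be told apart. Equal amounts of labelled cDNA were hybridised, so a change in the amount of RNA per cell would not be seen. The error of a value and the depth behind it are not known, and precision is limited by the small number of arrays.

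**Figure D1:**
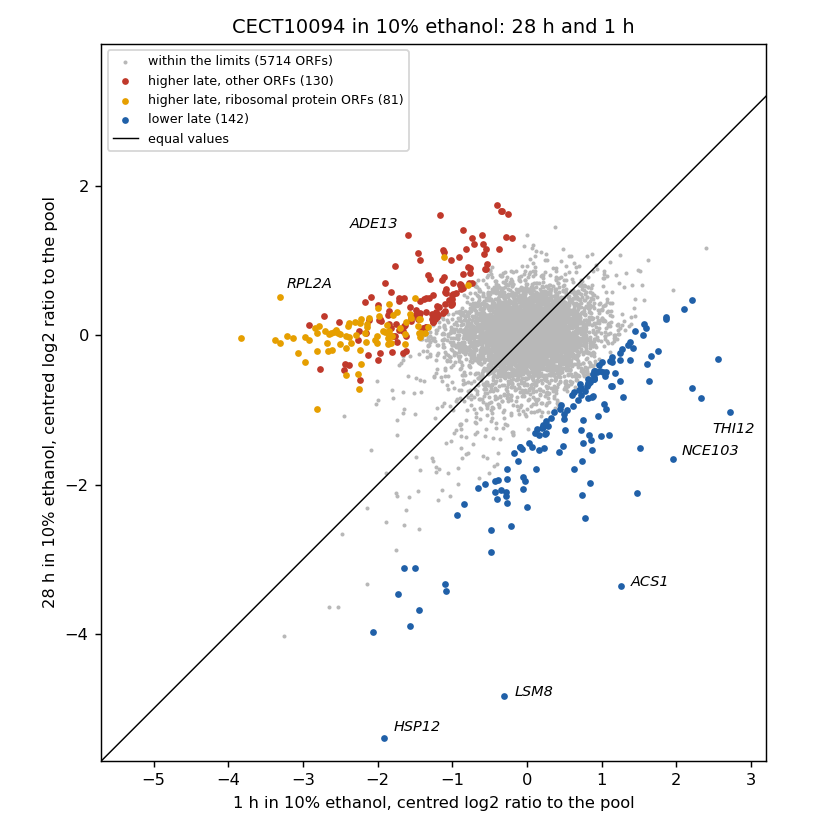
Centred log2 ratio to the pool at 28 h (vertical axis) against 1 h (horizontal axis) in CECT10094 in 10% ethanol, 1 point per ORF. Points left of the line of equal values were higher late: the ribosomal protein ORFs (orange, 81 higher) lie near 0 at 28 h and reach down to -3.83 at 1 h, whereas the 142 lower ORFs (blue) are spread along both axes.

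The higher ORFs were displaced mainly at 1 h, and the lower ORFs at both times. Among the 211 higher ORFs, the 1 h value lay farther from its column median than the 28 h value in 187 (88.6%), and the median level was 0.21 at 28 h, against -1.64 at 1 h. In 147 of them the 28 h value lay within 0.5 of the column median. Among the 142 lower ORFs, the 1 h value was the farther one in 58 (40.8%), and the median level was -1.13 at 28 h, against 0.73 at 1 h. The scatter of both ethanol columns shows the higher ORFs as a band at ordinary late levels and the lower ORFs as a cloud with low late levels, high early levels or both. Since the counts were made with these same columns, this describes the ORFs and supports nothing further.

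The genes of the cytosolic ribosome were the main group among the higher ORFs. Ribosomal protein ORFs made up 38.4% of the 211. Of 131 measured, 81 were higher and 0 lower, 125 had a positive relative difference, and their median was 1.75, against a median of 0 over all ORFs by construction. At 28 h in ethanol the levels of these genes lay between -0.99 and 1.05, with a median of 0.02 (134 ORFs). At 1 h in ethanol they lay between -3.83 and 0.73, with a median of -1.72 (132 ORFs), and 125 of them were below the median of their column. The groups thus overlapped only in part, and the late levels were close together while the early ones were widely spread. The small subunit had a median of 1.88 and 38 of 56 ORFs higher, and the large subunit had a median of 1.59 and 43 of 75 higher.

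*RPL2A*, which encodes a protein of the large subunit, had the highest relative difference of all, with a level of 0.52 at 28 h and -3.31 at 1 h in ethanol, or 14.3-fold higher late. Its levels without ethanol were 1.00 at 10 h and 0.97 at 1 h. Only the 1 h ethanol sample was low in this gene among the 4 CECT10094 samples. *RPL11A*, also of the large subunit, had -0.03 at 28 h and -3.83 at 1 h, a 14-fold difference. *RPS7A*, of the small subunit, had -0.06 at 28 h and -3.38 at 1 h (10.0-fold), and *RPL8B* had -0.02 at 28 h and -3.21 at 1 h (9.22-fold). *RPL24A* had -0.03 at 28 h and -2.98 at 1 h in ethanol (7.78-fold), beside -1.56 at 10 h and 1.69 at 1 h without ethanol. In *RPL24A* the order of the late and the early sample was thus opposite in the cultures with and without ethanol.

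Most yeast ribosomal proteins are encoded by a pair of duplicated genes, A and B, which gives many spots a near-identical partner. Both members were measured in 56 pairs. Both were higher in 27 pairs, only 1 was higher in 15, and neither was past the limit in 14. The median gap between the members of a pair was 0.51, and 15 pairs differed by at least 1. The widest gap, 3.60, was in *RPL20A*, with a relative difference of 2.68, and *RPL20B*, with -0.92. *RPL20A* had 0.02 at 28 h and -2.65 at 1 h, while *RPL20B* had -0.23 at 28 h and 0.70 at 1 h. Some pairs had values near 0 at both loci: *RPS30A* and *RPS30B* had relative differences of -0.08 and 0.10, and *RPL33A* and *RPL33B* had -0.02 and -0.01. These pairs were chosen after their values were seen. *RPS2*, which encodes a protein of the small subunit, had -0.08 at 28 h and 0.73 at 1 h, a relative difference of -0.80.

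The machinery that builds ribosomes did not share this size of difference. Of 88 ribosome biogenesis ORFs, which encode nucleolar assembly factors, 1 was higher and 0 lower, with a median of 0.30. The 1 was *NOP58*, a protein of the box C/D ribonucleoproteins that guide rRNA methylation, with 0.27 at 28 h and -1.19 at 1 h. It was no longer past the limit after quantile normalization, although its relative difference there was 1.68. Here and below, the limits after quantile normalization were set anew from the spread of the normalized values. Falling within them therefore does not mean that a difference became smaller. The median level of the ribosome biogenesis ORFs was -0.18 at 28 h and -0.47 at 1 h in ethanol. This list thus stood much nearer to the typical ORF at 1 h than the ribosomal proteins did. Among 24 subunits and factors of RNA polymerases I and III, which transcribe rRNA, tRNA and 5S genes, 0 passed the limit in either direction, with a median of 0.18.

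Genes that serve translation itself lay between. Of 37 translation factor ORFs, 6 were higher and 0 lower, with a median of 0.58. *EFT1*, one of the genes for elongation factor 2, had 0.32 at 28 h and -1.84 at 1 h, and its near-identical copy *EFT2* had 0.27 at 28 h and -1.86 at 1 h. The other higher members were *TIF1*, *CDC33*, *SUI3* and *EFB1*, with relative differences of 1.67, 1.57, 1.56 and 1.45, which encode initiation factors 4A and 4E, a subunit of initiation factor 2 and an elongation factor subunit. Members of this and the following lists that go beyond the 2 highest and 2 lowest of a list were chosen after their values were seen. All 18 aminoacyl-tRNA synthetases, which charge tRNAs, had positive relative differences, with a median of 0.91, and 1 of them, *SES1* for seryl-tRNA, was past the limit with 0.32 at 28 h and -1.35 at 1 h. Mitochondrial ribosomal proteins had a median of 0.40 with 0 of 70 past either limit.

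**Figure D2:**
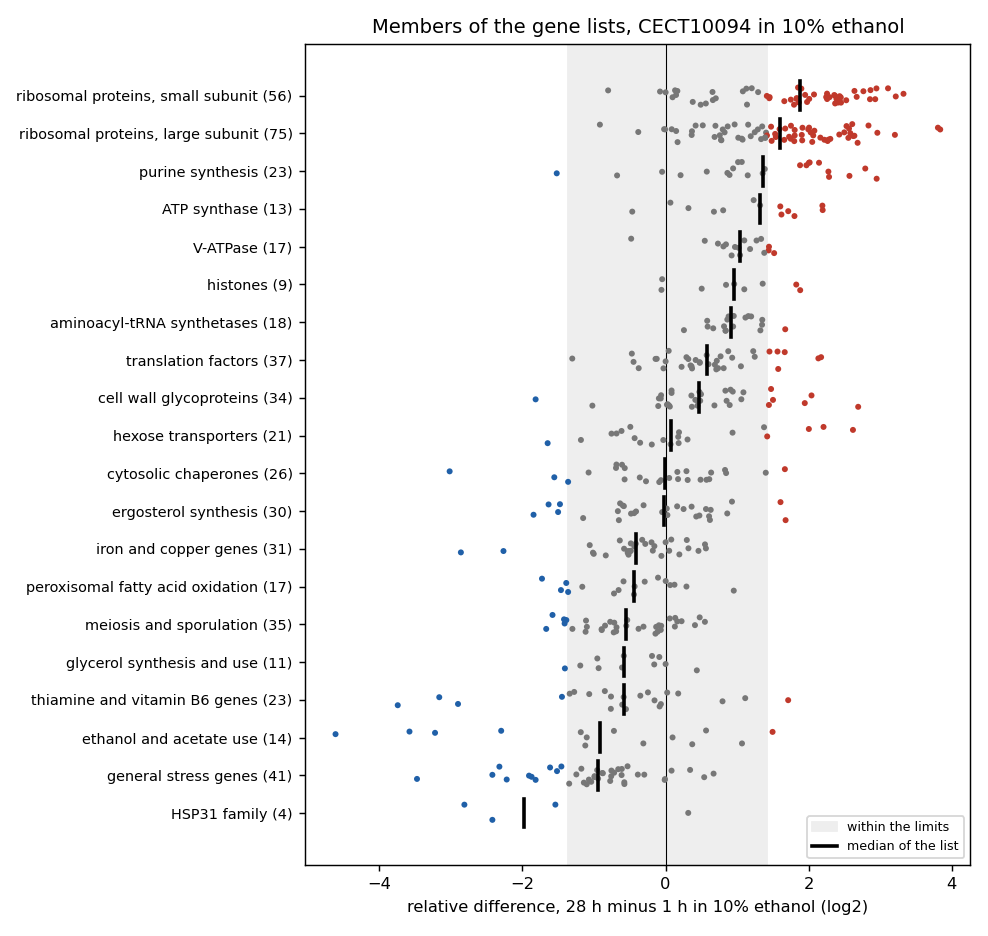
Relative difference, 28 h minus 1 h in 10% ethanol on the log2 scale, of every measured member of 20 gene lists (1 point each, number measured in brackets), with the median of the list as a black bar and the range within the limits shaded. These lists were picked from all 51 for a large median or several members past the limits, so they are not typical of the lists examined. Ribosomal proteins, purine synthesis and ATP synthase lie to the right with medians of 1.32 to 1.88, and the HSP31 family, general stress genes and ethanol and acetate use lie to the left with medians of -1.98 to -0.91.

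Purine synthesis was the list with the highest median outside the ribosome, 1.36 over 23 measured ORFs. It had 10 higher members and 1 lower, and 20 had a positive relative difference. *ADE13*, adenylosuccinate lyase, had a level of 1.34 at 28 h and -1.60 at 1 h in ethanol, a 7.72-fold difference. *ADE17*, which carries out the last steps to inosine monophosphate, had 1.61 at 28 h and -1.17 at 1 h (6.92-fold). Unlike the ribosomal proteins, both enzymes were well above the typical ORF at 28 h as well as below it at 1 h. *ADE12* had a relative difference of 2.57, *ADE4* 2.28, *ADE57* 2.27, *ADE1* 2.00 and *ADE2* 1.97, and these genes span the pathway from its first committed step to adenylate. *GUA1*, the last step to guanylate, had 1.88. Genes that supply the pathway with 1-carbon units were also higher, *SHM2* (serine hydroxymethyltransferase) with 1.74 at 28 h and -0.40 at 1 h and *GCV1* (glycine cleavage) with 1.66 at 28 h and -0.35 at 1 h. *HPT1*, which salvages hypoxanthine and guanine, had 0.50 at 28 h and -1.65 at 1 h. The lower member was *ADE6*, with -1.79 at 28 h and -0.26 at 1 h, although it acts in the same pathway. After quantile normalization *ADE6* was within the limits.

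The mitochondrial ATP synthase, which makes ATP from the proton gradient of respiration, had a median of 1.32 with 6 of 13 ORFs higher and 0 lower. *ATP4*, of its stator, had 0.03 at 28 h and -2.16 at 1 h (4.57-fold), and *ATP1*, the alpha subunit, had 0.22 at 28 h and -1.97 at 1 h (4.58-fold). *ATP16*, *ATP3*, *ATP5* and *ATP2* had relative differences of 1.80, 1.71, 1.62 and 1.60. The 2 lowest members, *STF2* with -0.47 and *INH1* with 0.07, are regulators of the enzyme and not part of its core. The respiratory chain, which makes the gradient, was not displaced as a list, with a median of 0.32 and 1 of 23 ORFs higher. That was *COR1* of complex III, with 0.11 at 28 h and -1.36 at 1 h, which fell within the limits after quantile normalization. In the tricarboxylic acid and glyoxylate cycles, 1 of 31 ORFs was higher and 0 lower (median -0.10). It was *IDH2*, a subunit of isocitrate dehydrogenase, with 0.10 at 28 h and -1.82 at 1 h, and *MDH1*, mitochondrial malate dehydrogenase, had a relative difference of 1.39.

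The vacuolar proton pump (V-ATPase), which acidifies the vacuole, had positive relative differences in 16 of 17 ORFs, with a median of 1.04. Of these, 3 were past the limit. *VMA22*, an assembly factor, had 0.41 at 28 h and -1.09 at 1 h, *VMA8* had 0.70 at 28 h and -0.74 at 1 h, and *VMA3* had a relative difference of 1.44. The lowest member, *STV1*, with -0.26 at 28 h and 0.23 at 1 h, encodes the subunit that directs the pump to the Golgi and endosomes in place of the vacuole. *PMA1*, the proton pump of the plasma membrane, had 0.58 at 28 h and -1.82 at 1 h in ethanol, a 5.32-fold difference.

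Of 21 ORFs for hexose transporters, glucose sensors and their regulators, 4 were higher and 1 lower, with a median of 0.07. *HXT4*, a high-affinity glucose carrier, had 0.44 at 28 h and -2.17 at 1 h (6.14-fold), and *HXT3*, of low affinity, had -0.07 at 28 h and -2.27 at 1 h (4.62-fold). *HXT6*, which shares nearly all of its sequence with *HXT7*, had a relative difference of 2.00 and *HXT1* had 1.42. The lower one was *HXT11*, with -0.84 at 28 h and 0.81 at 1 h. *HXT7* had 1.38, just within the limit, and *HXT2*, another glucose carrier, had -0.49. Of 34 cell wall glycoproteins, 6 were higher and 1 lower, with a median of 0.46. *CIS3*, a covalently linked mannoprotein, had 0.92 at 28 h and -1.76 at 1 h (6.46-fold), *TOS1* had 1.30 at 28 h and -0.73 at 1 h, and *CWP2*, *HSP150*, *CRH1* and *TOS6* had relative differences of 1.95, 1.5, 1.47 and 1.44. The lower one was *SPI1*, a wall protein that also stands on the list of general stress genes.

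In lipid metabolism the directions were mixed. *ELO3*, the elongase of very long chain fatty acids, had 0.70 at 28 h and -1.91 at 1 h (6.12-fold). *INO1*, which makes inositol phosphate for phospholipids, had -0.28 at 28 h and 1.67 at 1 h (3.83-fold lower late). These were the 2 members past the limits among 30 ORFs of fatty acid and phospholipid synthesis. Of 30 ergosterol ORFs, 2 were higher and 4 lower, with a median of -0.02. The higher ones act after squalene: *ERG1*, squalene epoxidase, had 1.09 at 28 h and -0.58 at 1 h, and *ERG3*, a sterol desaturase, had 0.83 at 28 h and -0.77 at 1 h. Among the lower ones were the enzymes of the first steps, *ERG10* with -0.61 at 28 h and 1.24 at 1 h, *ERG13* with 0.22 at 28 h and 1.86 at 1 h, and *HMG1* with a relative difference of -1.50, together with *ARE2*, which esterifies sterols, at -1.48. *ERG13* was within the limits after quantile normalization. *OLE1*, the fatty acid desaturase, had -0.10 at 28 h and 0.76 at 1 h, a relative difference of -0.85 that did not pass the limit.

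Of 9 histone ORFs, 2 were higher, with a median of 0.96. *HTA1* had 0.49 at 28 h and -1.38 at 1 h and *HTB2* had 0.50 at 28 h and -1.32 at 1 h. Both encode core histones that are made during DNA replication. *CLN1*, a G1 cyclin, had 1.11 at 28 h and -1.12 at 1 h (4.72-fold), and was the only higher one of 29 cyclins and regulators of the cell cycle, of which 0 were lower. *RNR1*, of ribonucleotide reductase, had 0.69 at 28 h and -0.90 at 1 h, and was the only one of 41 DNA replication ORFs past either limit. None of 35 ORFs of mitosis and cytokinesis and none of 29 of actin and polarity passed. *GCN4*, the activator of amino acid synthesis, had 0.78 at 28 h and -1.11 at 1 h. It and *HIS5* were the 2 higher of 17 lysine and histidine ORFs, while 0 of 27 ORFs for branched-chain and aromatic amino acids passed in either direction. *ZRT1*, the high-affinity zinc transporter, had 1.22 at 28 h and -0.72 at 1 h and was the only one of 13 zinc ORFs past a limit.

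**Figure D3:**
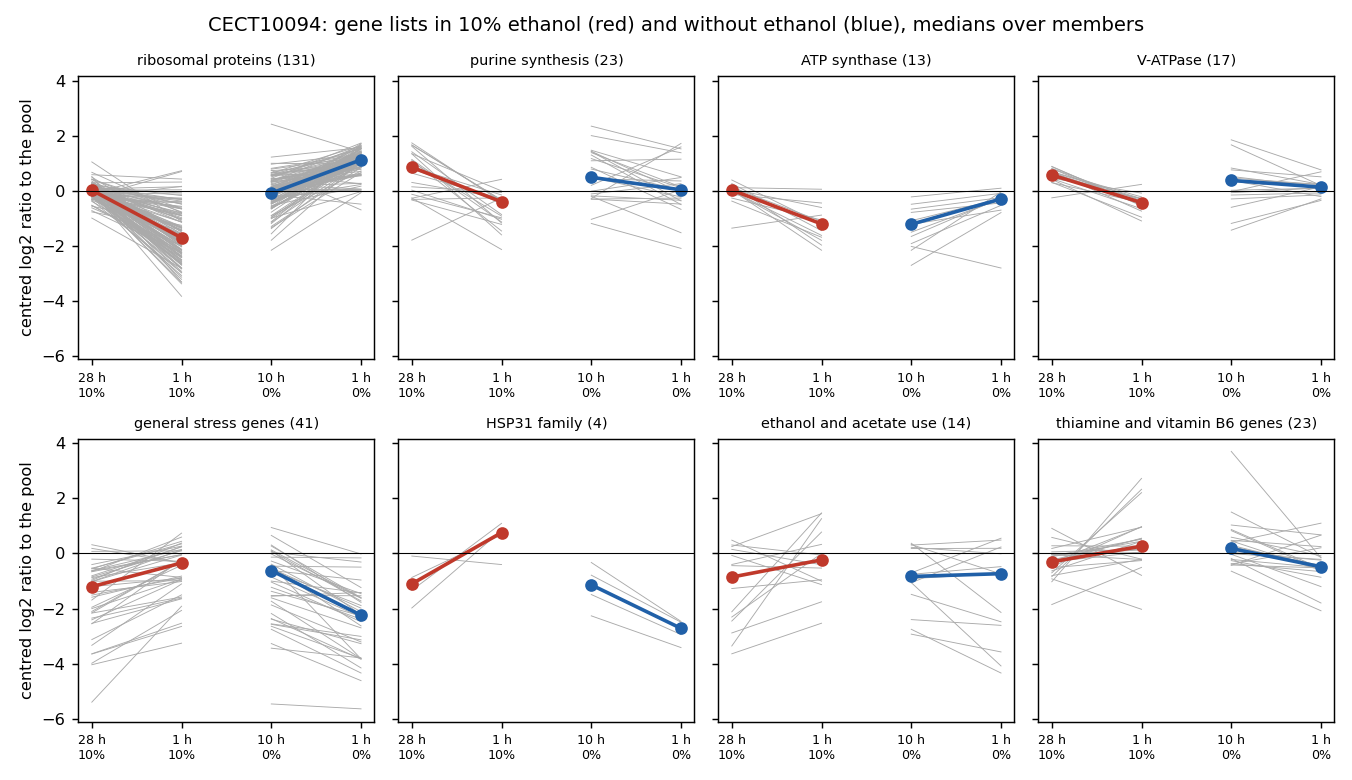
Centred log2 ratio to the pool of every member (grey lines) and the median over members (thick line) of 8 gene lists in CECT10094, at 28 h and 1 h in 10% ethanol (red) and at 10 h and 1 h without ethanol (blue). Ribosomal proteins had medians of 0.02 and -1.70 in ethanol and of -0.09 and 1.12 without it, and general stress genes had medians of -1.20 and -0.34 in ethanol and of -0.62 and -2.24 without it.

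Among the lower ORFs, the general stress genes were the list with the most members, with 10 of 41 lower and 0 higher, and 37 of 41 with a negative relative difference. Their median was -0.94, and 17 were at least 2-fold lower. The median level of these genes was -1.20 at 28 h and -0.34 at 1 h in ethanol, so they were typically below the median ORF at both times. *HSP12*, a small membrane-associated heat shock protein, had -5.39 at 28 h and -1.91 at 1 h in ethanol (11.1-fold lower late), and -5.46 at 10 h and -5.64 at 1 h without ethanol. It was therefore below the typical ORF in all 4 CECT10094 samples and least so at 1 h in ethanol. In Temohaya-MI26 in ethanol it stood at -0.80 at 40 h and 1.47 at 1 h. *RGI1*, involved in energy metabolism under respiratory growth, had -1.69 at 28 h and 0.74 at 1 h (5.35-fold lower). *SOL4*, *MSC1*, *RTN2*, *DDR2* and *HSP30* had relative differences of -2.32, -2.22, -1.91, -1.87 and -1.46, *SPI1* had -1.81, *SPG4* had -1.61 and *TFS1* had -1.52. *SPG4* and *TFS1* were within the limits after quantile normalization. The list was not uniform, since *MSN4*, one of its transcription factors, had 0.32 at 28 h and -0.34 at 1 h, and *HOR7* had a relative difference of 0.54. Of 20 trehalose and glycogen ORFs, which belong to the same program, 17 had a negative relative difference but 0 passed either limit (median -0.36).

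The HSP31 family, relatives of a glyoxalase-type chaperone, had 3 of its 4 members lower and a median of -1.98. *SNO4* had -1.98 at 28 h and 0.84 at 1 h (7.01-fold lower), *HSP33* had -1.33 at 28 h and 1.09 at 1 h (5.35-fold lower), and *HSP32* had -0.87 at 28 h and 0.68 at 1 h (2.91-fold lower). These 3 genes are near-identical in sequence, so their spots are not independent. *HSP31* itself, which is more diverged, had -0.09 at 28 h and -0.40 at 1 h.

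Cytosolic chaperones did not move as a list (median -0.01), with 1 of 26 higher and 3 lower. *HSP26*, a small heat shock protein, had -1.51 at 28 h and 1.52 at 1 h (8.09-fold lower), and *HSP42*, another, had -0.94 at 28 h and 0.62 at 1 h. *FES1*, an exchange factor of Hsp70, had -1.36. The higher one was *CPR7*, a cyclophilin that works with Hsp90, with 0.90 at 28 h and -0.76 at 1 h. The large chaperones differed little: *HSP104*, the disaggregase, had -0.35 at 28 h and 0.35 at 1 h, *HSP82* had 0.24 at 28 h and 0.20 at 1 h, and its constitutive partner *HSC82* had 0.29 at 28 h and 0.57 at 1 h. *SBA1*, an Hsp90 co-chaperone, had a relative difference of 0.85. In the endoplasmic reticulum, where proteins are folded under the control of the factor Hac1, 2 of 34 ORFs were lower and 0 higher, and the median was also -0.01. *PDI1*, protein disulfide isomerase, had 0.35 at 28 h and 2.11 at 1 h, and its relative *MPD1* had 0.24 at 28 h and 1.86 at 1 h. Both were above the typical ORF at both times, and neither passed the limit after quantile normalization. *HAC1* had -0.13 at 28 h and 0.65 at 1 h, *ERO1*, the oxidase that serves Pdi1, had 0.10 at 28 h and 1.05 at 1 h, and *LHS1* had 0.75 at 28 h and 0.60 at 1 h, with relative differences of -0.77, -0.94 and 0.16. *KAR2* had no value at 1 h in ethanol, and its level at 28 h was 0.40. Of 33 proteasome ORFs, 1 was higher, *PRE9*, with 0.32 at 28 h and -1.09 at 1 h, which was within the limits after quantile normalization. Of 21 ubiquitin ORFs, the 1 that was higher was *UBC1*, a conjugating enzyme, with 0.62 at 28 h and -0.88 at 1 h.

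Several of the lowest relative differences belonged to the route from acetaldehyde to acetyl-CoA. *ACS1*, the acetyl-CoA synthetase that glucose represses, had -3.35 at 28 h and 1.26 at 1 h in ethanol, which made it 24.4-fold lower late and the lowest relative difference of the array at -4.61. Without ethanol it had -2.93 at 10 h and -3.57 at 1 h. *ACS1* thus stood high in the 1 h ethanol sample alone among the CECT10094 samples. *ALD6*, the cytosolic acetaldehyde dehydrogenase, had -2.12 at 28 h and 1.47 at 1 h (11.9-fold lower), and *ALD4*, the mitochondrial one, had -2.45 at 28 h and 0.78 at 1 h (9.32-fold lower). *ATO2*, a membrane protein of acetate and ammonium transport, had -2.31 at 28 h and -0.00 at 1 h. These 4 were the lower ones of 14 ORFs of ethanol and acetate use, whose median was -0.91, and *ADH7*, an alcohol dehydrogenase, was the 1 higher, with 0.48 at 28 h and -1.0 at 1 h. *SFA1*, the formaldehyde and alcohol dehydrogenase, had 1.07. In glycolysis and fermentation, where 12 of 17 ORFs of the array had a difference, *PDC5*, a pyruvate decarboxylase, was higher with 0.38 at 28 h and -1.57 at 1 h. *ADH4* had 0.20 at 28 h and 1.03 at 1 h, and *ADH2* was not analysed here.

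Peroxisomal fatty acid oxidation and the acetyl shuttle had 4 of 17 ORFs lower and 0 higher, with a median of -0.44. *CAT2*, the carnitine acetyltransferase, had -2.08 at 28 h and -0.34 at 1 h, *POT1*, the thiolase, had -1.44 at 28 h and 0.03 at 1 h, and *CTA1*, peroxisomal catalase, had -0.48 at 28 h and 0.89 at 1 h, at a relative difference of -1.36 that only just passed. *CRC1*, a mitochondrial carnitine carrier, had -1.39. *FAT3*, which is needed for fatty acid uptake, had -2.14 at 28 h and 0.74 at 1 h (7.35-fold lower). *GUT2*, the mitochondrial glycerol 3-phosphate dehydrogenase, had -1.20 at 28 h and 0.21 at 1 h and was the only one of 11 glycerol ORFs past a limit. *NCE103*, carbonic anhydrase, had -1.66 at 28 h and 1.95 at 1 h in ethanol (12.1-fold lower).

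Of 23 thiamine and vitamin B6 ORFs, 4 were lower and 1 higher, with a median of -0.59. *THI12* had -1.03 at 28 h and 2.72 at 1 h (13.4-fold lower), *THI13* had -0.84 at 28 h and 2.33 at 1 h (8.94-fold), and *THI11* had -0.70 at 28 h and 2.21 at 1 h (7.46-fold). They make the pyrimidine precursor of thiamine and are near-identical, but *THI5* of the same family had a relative difference of -0.58. *THI11*, *THI12* and *THI13* thus stood far above the typical ORF at 1 h in ethanol and below it at 28 h. *SNO2*, of vitamin B6 metabolism, had -1.45, and the higher one was *THI72*, a transporter, with 0.91 at 28 h and -0.79 at 1 h. Of 31 iron and copper ORFs, 2 were lower, *CTR2*, the vacuolar copper transporter, with -0.31 at 28 h and 2.55 at 1 h (7.26-fold), and *HMX1*, heme oxygenase, with -1.41 at 28 h and 0.86 at 1 h (4.80-fold).

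Several amino acid permease genes and a gene of proline use were lower late. *PUT4*, the proline permease, had -1.36 at 28 h and 1.00 at 1 h (5.07-fold lower), and *PUT1*, proline oxidase, had -0.99 at 28 h and 1.05 at 1 h (4.10-fold lower). *DIP5*, the permease of acidic amino acids, had -1.45 at 28 h and 0.75 at 1 h, and *GAP1*, the general permease, had a relative difference of -1.47. *PUT4*, *DIP5* and *GAP1* were the lower ones of 25 amino acid permeases, of which 0 were higher (median -0.25). *PUT1* was the only lower one of 18 arginine and proline ORFs, of which 0 were higher (median -0.23). Of 35 ORFs of meiosis and sporulation, 5 were lower and 0 higher, with a median of -0.55, among them the spore wall gene *SPS100* with -2.10 at 28 h and -0.43 at 1 h and the sporulation gene *SPS2* with -0.17 at 28 h and 1.42 at 1 h. Of 25 mating ORFs, 2 were lower and 1 higher, with a median of -0.28. *FUS3*, the kinase of the pheromone pathway, had -0.83 at 28 h and 1.29 at 1 h (4.33-fold lower). *STE2*, the receptor of alpha factor, had 0.15 at 28 h and 1.57 at 1 h but was within the limits after quantile normalization. The higher one was *MF(ALPHA)2*, with 0.27 at 28 h and -1.48 at 1 h. *PUF4*, an RNA-binding regulator, had -1.09 at 28 h and 0.95 at 1 h (4.09-fold lower).

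Among the lists with no member past either limit were flocculins, seripauperins, galactose genes, autophagy, mitochondrial chaperones and Ty ORFs. *FLO11*, the flocculin of the flor biofilm, had -0.05 at 28 h and -0.02 at 1 h. The 9 Ty ORFs, a list that the study took from these samples, had a median level of 0.75 at 28 h and 0.72 at 1 h in ethanol, and of -1.43 at 10 h and -0.90 at 1 h without ethanol. In CECT10094 they were thus above the typical ORF at both times in ethanol and below it at both times without ethanol, with a median relative difference of -0.04.

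**Figure D4:**
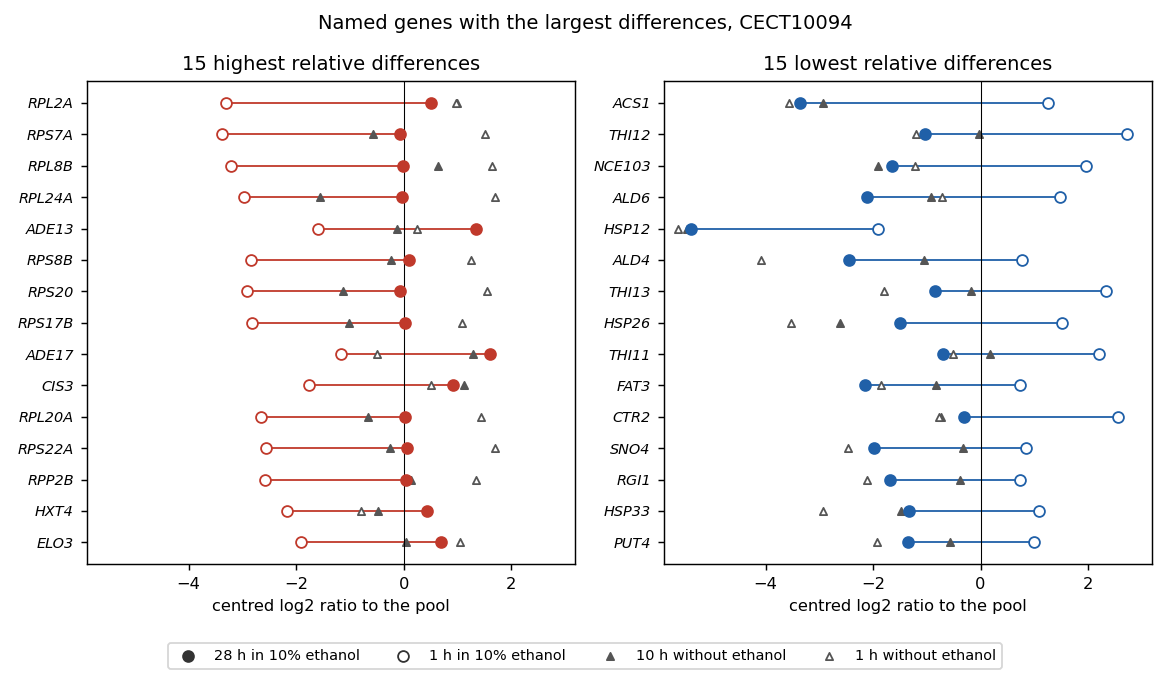
Centred log2 ratio to the pool of the 15 named genes with the highest (left panel) and the 15 with the lowest (right panel) relative differences among genes with all 4 CECT10094 values. This leaves out, among others, RPL11A, RPS8A, RPS1A, RPS1B, RPL15A, RPL15B and LSM8. Symbols give 28 h (filled circles) and 1 h (open circles) in 10% ethanol and 10 h (filled triangles) and 1 h (open triangles) without ethanol. In the left panel the open circles are the lowest symbol of each gene, from -3.38 in RPS7A to -1.17 in ADE17, and in the right panel they are the highest symbol, from -1.91 in HSP12 to 2.72 in THI12.

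The cultures without ethanol place these values. For 184 of the higher ORFs all 4 CECT10094 values were measured, and the 1 h ethanol value was the lowest of the 4 in 167 (90.8%), against 23.2% of all 5924 ORFs. For 137 of the lower ORFs the 1 h ethanol value was the highest of the 4 in 107 (78.1%), against 22.9% of all. The counts use the 1 h ethanol column that also chose the ORFs, and so they describe the ORFs only. The 28 h ethanol value of the lower ORFs was nearer to the 1 h value without ethanol than to the 10 h value in 99 of 137 (72.3%), beside 61.7% of all ORFs. Among the higher ORFs this was so for 78 of 184 (42.4%). These counts use the 28 h ethanol column, which also chose the ORFs, so they too are only a description. In the higher ORFs the median level was 0.25 at 28 h and -1.55 at 1 h in ethanol, and -0.18 at 10 h and 0.84 at 1 h without ethanol. In the lower ORFs it was -1.12 at 28 h and 0.72 at 1 h in ethanol, and -0.15 at 10 h and -1.08 at 1 h without ethanol. In both sets the late sample with ethanol and the early sample without it lay on the same side of the late sample without ethanol.

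Late minus 1 h in ethanol tended to run opposite to late minus 1 h without ethanol. The 2 comparisons share no column, only the array and the pool, and across 5924 ORFs their relative differences had r = -0.44 and rho = -0.46. Without the ribosomal protein ORFs r was -0.41 (5813 ORFs). In the cultures without ethanol, 173 of 5980 ORFs were higher at 10 h than at 1 h (2.89%) and 171 were lower (2.86%). Of the 184 measured ORFs that were higher in ethanol, 1 was higher, 40 were lower and 143 were within the limits without ethanol. Their median there was -1.02. Of the 137 measured ORFs that were lower in ethanol, 22 were higher, 1 was lower and 114 were within the limits without ethanol. Their median there was 0.90. In all, 62 ORFs passed the limits in opposite directions, 19 of them ribosomal protein ORFs. A difference between the 2 comparisons could not be tested with 1 column per condition. The late samples were taken at 28 h with ethanol and at 10 h without it, so ethanol and sampling time cannot be told apart.

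The lists differed in this respect. Ribosomal proteins had 81 of 131 higher with ethanol and 24 of 111 lower without it, and the 1 h ethanol level was the lowest of the 4 CECT10094 values in 99 of 111. Ribosome biogenesis had a median of 0.30 with ethanol and -1.18 without it, where 24 of 88 ORFs were lower. ATP synthase had medians of 1.32 with ethanol and -0.85 without, and general stress genes had -0.94 with ethanol and 1.30 without. Purine synthesis had a positive median in both, 1.36 with ethanol and 0.67 without, and V-ATPase had 1.04 and 0.12. *HSP82*, which hardly differed in ethanol, had -3.06 at 10 h and -0.83 at 1 h without ethanol. *ADH4* had a relative difference of -0.82 with ethanol and of 4.98 without. The 1 ORF higher in both was *ZRT1*, with 1.95 with ethanol and 2.65 without, and the 1 ORF lower in both was *ERG13*, with -1.63 with ethanol and -1.98 without.

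In Temohaya-MI26 in ethanol the comparison of 40 h with 1 h ran the same way for many of these ORFs. There 179 of 5730 ORFs were higher (3.12%) and 125 lower (2.18%), and across 5695 ORFs the relative differences of the 2 strains had r = 0.36 and rho = 0.22 (r = 0.29 without the ribosomal protein ORFs, 5568 ORFs). Of the 206 measured ORFs that were higher in CECT10094, 93 were also higher in Temohaya-MI26, which is 45.1% of the CECT10094 set and 52.0% of the Temohaya-MI26 calls. Of the 122 measured ORFs that were lower in CECT10094, 27 were also lower in Temohaya-MI26, 22.1% of the CECT10094 set and 21.6% of the Temohaya-MI26 calls. In 0 ORFs were the limits passed in opposite directions. The late samples of the strains were taken at different hours, 28 h and 40 h, so strain and sampling time cannot be told apart.

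Ribosomal proteins were higher in both strains, 81 of 131 in CECT10094 and 54 of 127 in Temohaya-MI26. The median of the general stress genes was -0.94 in CECT10094, against -1.17 in Temohaya-MI26, and that of purine synthesis was 1.36 in CECT10094, against 1.19 in Temohaya-MI26. *ACS1* was lower in both, at -4.61 in CECT10094 and -5.57 in Temohaya-MI26. Several other lists differed between the strains. Glycolysis and fermentation had a median of -0.03 and 1 of 12 ORFs higher in CECT10094, against 1.61 and 4 of 10 in Temohaya-MI26. The proteasome median was 0.17 in CECT10094 and -0.84 in Temohaya-MI26, and that of cytosolic chaperones was -0.01 and -0.79. ATP synthase had a median of 1.32 and 6 of 13 ORFs higher in CECT10094, against -0.02 and 0 of 13 in Temohaya-MI26. *ATP1* had -1.71 at 40 h and -1.11 at 1 h in Temohaya-MI26 in ethanol, so that it was low at both times there. In CECT10094 in ethanol it was low at 1 h only, but without ethanol it had -1.50 at 10 h and -0.30 at 1 h. Thiamine genes differed as well: the relative difference of *THI12* was -3.74 in CECT10094, against 0.91 in Temohaya-MI26, where it stood at 0.66 at 40 h and -0.25 at 1 h. *ALD6* had -3.58 in CECT10094 and -0.00 in Temohaya-MI26, with high levels there at both times (1.77 at 40 h and 1.79 at 1 h). *PDC5* had 2.0 in CECT10094 and 5.62 in Temohaya-MI26, where its level was 1.5 at 40 h and -4.12 at 1 h. *RPL26B* had 2.16 in CECT10094 and -1.17 in Temohaya-MI26, *MRH1*, a plasma membrane protein, had 2.03 and -0.96, and *SPG4* had -1.61 and -4.95. *LSM8*, of the complex that binds U6 RNA, had -4.51 in CECT10094 and 1.30 in Temohaya-MI26. In CECT10094 *LSM8* had no value without ethanol, and its low level was in the 28 h sample alone, at -4.83. None of these differences between strains could be tested.

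**Figure D5:**
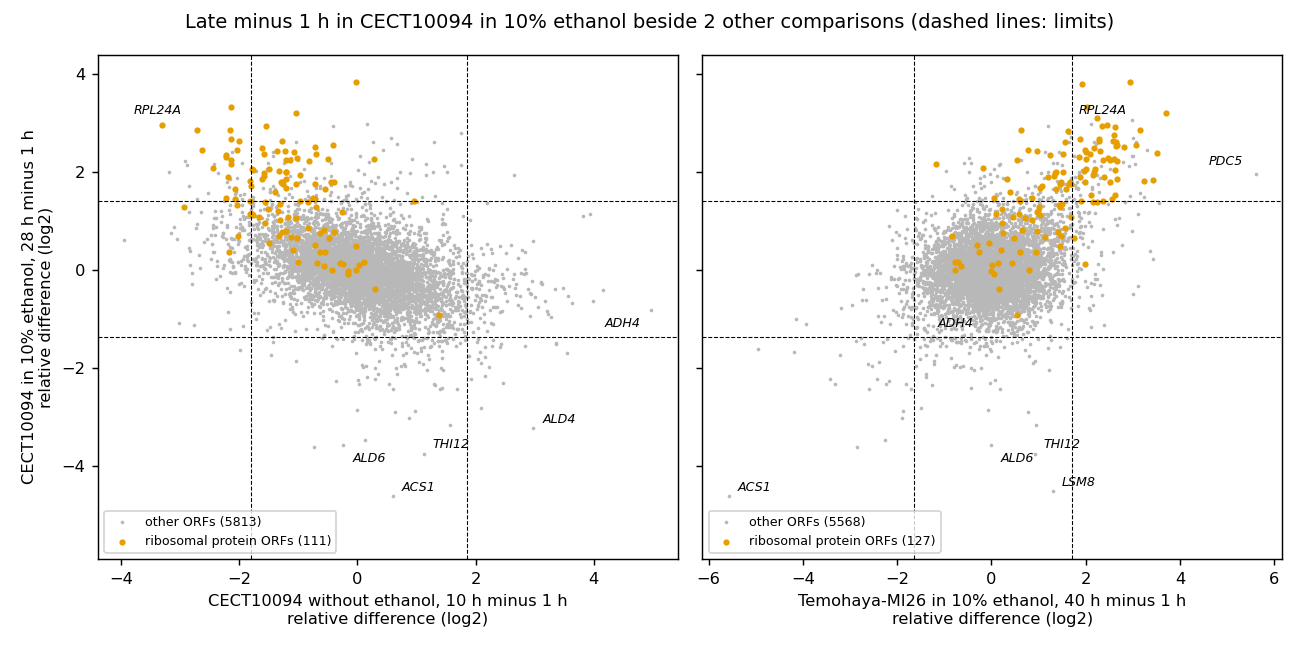
Relative difference, 28 h minus 1 h, in CECT10094 in 10% ethanol (vertical axes, log2) against 10 h minus 1 h in CECT10094 without ethanol (left panel) and 40 h minus 1 h in Temohaya-MI26 in 10% ethanol (right panel), 1 point per ORF, with ribosomal protein ORFs in orange and the limits as dashed lines. The points slope down in the left panel (r = -0.44) and up in the right panel (r = 0.36), and ribosomal proteins lie in the upper left and the upper right.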

How the data were processed

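RNA of CECT10094 and Temohaya-MI26 cultures was hybridised to 24 spotted Yeast 6.4 K slides, 3 biological replicates for each of 8 conditions, with the samples in Cy5, the pool in Cy3 and no dye swap. The authors removed poor spots, subtracted a global background in GenePix Pro 6.0, normalized by ratio in Acuity 4.0, and deposited log2 ratios of sample to pool as the median of the slides of a condition. A deposited table of the authors' differences between 10% and 0% ethanol holds their own comparison and was not used. The strain labelled PE35M was taken as CECT10094, as the methods state.

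From the deposited log2 values, late minus 1 h was computed per ORF with pandas 2.3.3 and numpy 2.4.6 in Python 3.11.15, and the median difference of all ORFs was subtracted. With 1 column per condition no test was run. The steps were tested on simulated data. By locus tag, 5653 of 6152 ORFs matched the RefSeq annotation and 5128 had a gene name. Of the names on 51 gene lists, 3 matched no gene. The members, lists and limits were chosen with earlier results of these data known.

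Genes were named by a rule: the 15 highest and the 15 lowest named ORFs with all 4 CECT10094 values, the 2 highest and 2 lowest members of each list, a fixed set of stress genes, and the 10 named genes that departed most, in each direction, from the cultures without ethanol and from Temohaya-MI26. Others were chosen after their values were seen. The alternatives were other limits, quantile normalization, no centring, other sets of ORFs and the mean in place of the median.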

Additional observations from a re-analysis of the deposited data

Results flagged for a closer look

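For 20 of the named genes, late minus 1 h passed the limits in opposite directions with and without ethanol in CECT10094. The values given here are the relative difference with ethanol minus that without ethanol, on the log2 scale, and with 1 column per condition none of these differences was tested. Of these genes, 13 were higher late with ethanol and lower late without it. They were the ribosomal protein genes *RPL24A* (6.26), *RPS20* (5.58), *RPS7A* (5.46), *RPS18B* (5.07), *RPS17B* (5.01), *RPL20A* (4.83), *RPS22A* (4.64), *RPS18A* (4.58) and *RPL26B* (4.29), and with them *FAR10* (5.03), *HPT1* (4.58), *ATP4* (4.15) and *NOP58* (3.52). The others were lower late with ethanol and higher late without it, namely *ALD4* (-6.20), *SNO4* (-4.90), *TFS1* (-4.87), *AIM17* (-4.85), *ATO2* (-4.76), *SPI1* (-3.85) and *PDI1* (-3.64). *FAR10*, of the pathway that arrests the cell cycle on pheromone, had 0.19 at 28 h and -1.95 at 1 h with ethanol, and -1.89 at 10 h and 0.95 at 1 h without. *AIM17* had -1.34 at 28 h and 0.16 at 1 h with ethanol, and 0.36 at 10 h and -3.05 at 1 h without. Named genes were chosen in part for such departures, so their number says nothing about all ORFs, of which 62 passed in opposite directions.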

How the results depend on the processing

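The main counts were 211 ORFs higher and 142 lower. A stricter limit on the standard deviation scale gave 112 and 52, a relative difference of at least 1 gave 418 and 324, and a spread taken from the median absolute deviation gave 336 and 252. Differences not taken relative to the median, with a fixed limit of 1, gave 245 higher and 735 lower. Quantile normalization (175 and 131), ORFs with values in all 8 columns (183 and 129), and leaving out chromosomes I, II (right arm) and III (196 and 124) kept both counts within 1.5 times. So did leaving out the ribosomal protein ORFs (167 and 156), an alternative chosen after seeing the data. Only 130 of the 211 higher ORFs were not ribosomal protein ORFs, so the 167 rest on limits set anew from the remaining ORFs. Limits were also set anew after quantile normalization and without those chromosomes. Such limits mark a similar share of ORFs each time, so the similar counts say little about stability. The correlation with Temohaya-MI26 was 0.36 by Pearson and 0.22 by Spearman. Among the named genes, 12 were no longer past the limit after quantile normalization and 11 came past it, by limits set anew from the normalized values. Named genes without values in all 8 columns could not be checked in this way, among them *RPL2A*, *RPL11A*, *RPL8B*, *ALD4*, *PDC5* and *LSM8*. Without centring 15 were lost and 16 gained, and no named gene that was past the limit changed its direction. Without centring every list median shifted by -0.32, and 14 of 51, which lay between 0.07 and 0.32, turned negative. That shift took the medians of general stress genes (-1.26) and ethanol and acetate use (-1.23) past 1 in size, and those of ATP synthase (1.00) and V-ATPase (0.72) below it. Quantile normalization, which used only the 5359 ORFs with values in all 8 columns, shifted the list medians by -0.66 to 0.48. These shifts, and the counts of 175 and 131, thus mix a change of normalization with a change of ORFs. The widest shifts were in the HSP31 family (-2.64), V-ATPase (1.52) and purine synthesis (1.77), and general stress genes (-1.16), aminoacyl-tRNA synthetases (1.20) and histones (1.16) came past 1 in size. It turned the sign of 7 medians, the mean in place of the median turned 6, and leaving out the chromosomes named above turned 4, all of them 0.24 or less in size. Ethanol and acetate use also came past 1 in size with the mean (-1.04) and without those chromosomes (-1.10).

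No paired analysis was possible because each condition is 1 column of combined slides and no result comes from a test. The planned comparison of promoter motifs was not run, since no promoter sequences were used here. The spread between slides, dye bias and spot quality could not be examined, so small differences and the order of genes near the limits are uncertain.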

Other observations

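Of the ORFs past the limits, 73 higher and 89 lower ones stood on none of the gene lists, and the genes named here were chosen after their values were seen. Among the higher ones were *STM1*, which binds ribosomes, with 0.41 at 28 h and -1.99 at 1 h in ethanol, *TMA19* with 0.21 at 28 h and -2.11 at 1 h, and *EGD1*, of the nascent chain complex, with 0.12 at 28 h and -1.64 at 1 h. Without ethanol *STM1* had a relative difference of -2.12. *SUR2*, a hydroxylase of sphingolipid synthesis, had a relative difference in ethanol of 2.14, *LAC1*, a ceramide synthase, had 1.82, *PSA1*, which makes GDP-mannose, had 2.06 and *GDH1*, glutamate dehydrogenase, had 1.81. These are single genes, and no list of their pathways was examined.

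Among the lower ORFs outside the lists, *HBT1* had -3.43 at 28 h and -1.09 at 1 h in ethanol, and *FMP45*, a membrane protein of eisosomes, had -3.68 at 28 h and -1.45 at 1 h. *YDL124W*, an aldo-keto reductase, had -1.54 at 28 h and 0.87 at 1 h, and *GRE2*, a methylglyoxal reductase, had -1.90 at 28 h and -0.05 at 1 h. Lactate dehydrogenase *CYB2* had a relative difference of -1.96 and *DLD1* had -1.41. *CHA1*, which degrades serine and threonine, had -2.23, *UGA1*, of GABA use, had -1.98, *GAT1*, an activator of nitrogen catabolic genes, had -1.73, and *DAL3*, of allantoin use, had -1.39. The meiotic genes *MEI5* and *AMA1* had -2.15 and -2.11. Of the ORFs past the limits, 18 higher and 10 lower ones were not in the annotation. The lower ORF YCL042W (-1.69) overlaps *GLK1*, which had no difference of its own, and YLL053C (-1.48) overlaps *AQY2* (-1.25).

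No chromosome arm stood far from the rest in this comparison. The medians of the arms lay between -0.22 on the left arm of chromosome VI and 0.16 on the left arm of chromosome VII. Chromosomes I and III and the right arm of chromosome II, whose median centred level was 0.46 at 10 h without ethanol, had a median relative difference of -0.04 in ethanol. The buffer spot of the array had a relative difference of -0.23 and the Arabidopsis control spot had -0.80.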
